A study of Mus musculus with 18 samples.

Results

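The RNA exosome subunits are the products of the genes Exosc1 to Exosc10. They were taken as every gene with one of these 10 symbols in 3 count tables of polyadenylated RNA from mouse hippocampus. Of the 10, 9 were listed in the table of the miR-132/212 deletion (10541 genes) and the same 9 in the table of tTA::miR132 (10799 genes). Exosc6 was listed in neither of them, and none of the 10 was among the 4618 gene symbols of the tTA::miR212 table. Every level below therefore comes from 2 tables and 8 libraries, and nothing can be said here about these subunits under miR-212.

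The study used C57BL/6 mice with the genotype CaMKII-Cre::miR-132/212f/f, in which Cre from the CaMKII promoter, active in excitatory forebrain neurons, deletes both microRNA genes, and mice that carry a tetracycline transactivator with a miR-132 or a miR-212 transgene (tTA::miR132, tTA::miR212). Each line had its own nontransgenic controls, which lack the driver as well as the microRNA change, so driver and microRNA cannot be told apart in any comparison. cDNA of 6 animals was pooled into 3 replicates a group. For the deletion and for tTA::miR132, 2 numbered libraries a group were used, the third is not analysed here, and p-values measure only the spread between these libraries.

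The exosome is a barrel of proteins that degrades or trims RNA from its 3' end, in the nucleus and in the cytoplasm. A ring of 6 subunits related to the bacterial enzyme RNase PH (Exosc4 to Exosc9) carries a cap of 3 RNA-binding subunits (Exosc1 to Exosc3), and neither cuts RNA in mammals. That work is done by Exosc10, a nuclear exonuclease, and by DIS3 or DIS3L at the bottom of the barrel. Every cell needs the complex, and in humans inherited variants of EXOSC3, EXOSC8 and EXOSC9 cause pontocerebellar hypoplasia, a disorder of brain development.

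MicroRNAs pair through their seed, bases 2 to 8, with sites mostly in the 3' untranslated region (UTR) of a message. The mature sequences (RefSeq, GRCm38.p6, chromosome 11) are shown because the deletion and the transgenes act through them, with the seed in capitals:
mmu-miR-132-3p: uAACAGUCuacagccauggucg
mmu-miR-212-3p: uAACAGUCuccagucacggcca
Both share the seed AACAGUC, which pairs with GACTGTT. No 3' UTR of the 9 subunits, taken from the longest coding transcript of each gene (87 to 1002 bases), held this site, which 8.91% of 19485 annotated mouse 3' UTRs hold. The coding regions of Exosc7 and Exosc10 did, and these matches are shown with the site in capitals because they are the ones in the subunits' longest coding transcripts:
Exosc7 coding site: gttctttgttGACTGTTcagccaatgc
Exosc10 coding site: tggaccccatGACTGTTcccacgcccc
The Exosc7 site covers bases 301 to 307 of its transcript. The Exosc10 site covers bases 1870 to 1876 of its transcript and lies in exon 16, at chr4:147947250-147947256 on the plus strand (mm9). The same bases fall in the annotated 3' UTR of another Exosc10 transcript. The other arms of the same hairpins, which have seeds of their own, are shown because one of them matches Exosc9:
mmu-miR-132-5p: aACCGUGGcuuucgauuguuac
mmu-miR-212-5p: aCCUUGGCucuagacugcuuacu
Exosc9 coding site of miR-212-5p: ccaagtaaagGCCAAGGgaaaaggaag
The sites are CCACGGT for miR-132-5p, in 2.29% of annotated 3' UTRs, and GCCAAGG for miR-212-5p, in 9.32%. The longest transcripts of the subunits hold neither in the 3' UTR. In coding regions, the miR-212-5p site is in Exosc9 (bases 1357 to 1363 of the transcript, exon 12, chr3:36464389-36464395, plus strand, mm9) and in Exosc10, and the miR-132-5p site is in Exosc8. The Exosc9 bases fall in the annotated 3' UTR of another of its transcripts, as do those of Exosc10. A match is a string of letters and does not show that a microRNA acts there.

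Summed counts were 8190899 to 9702801 a library in the deletion table and 8301385 to 14772907 in the tTA::miR132 table. Deletion library 1 stood apart: 9.93% of its genes had no count, against 73 to 120 genes in the other 3 libraries of that table. Of all genes in the deletion table, 17.9% were lower in both deletion libraries than in both controls. Of 10 listed choroid plexus markers, 9 were. Their summed level was 512.1 to 1772 CPM (the count scaled to the library's total) in the deletion, against 4517 to 5074 CPM in its controls, and Otx2, which defines that tissue, was at 0 in both deletion libraries. The part of this difference in the values below was not tested. In bulk tissue, fewer cells of a type and less RNA per cell cannot be told apart. All 9 markers of hippocampal excitatory neurons were listed, with Prox1 at 0 in deletion library 1, at 2790 to 3175 CPM in sum in the deletion and 2488 to 3002 CPM in its controls.

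The family was chosen by the level of Exosc9, a ring subunit already known to be low in the deletion, so all values of that comparison are given as a description without a test. Exosc9 (NM_019393, chr3:36451528-36464649, plus strand, mm9) had 19.1 and 31.3 CPM in deletion libraries 1 and 2, against 98.3 and 69.0 CPM in control libraries 1 and 2. These were 180 and 304 reads in the deletion and 927 and 565 reads in its controls. Both deletion libraries were below both control libraries, with no overlap. The log2 fold change was -1.71 (SE 0.51), and it lay between -2.06 and -1.43 when each library was left out in turn. Without deletion library 1, the one with many genes at 0, it was -1.43. In GENCODE M1, 512 of the 4711 exon bases of Exosc9 (10.9%) also belong to Ccna2 on the other strand. Ccna2, a cyclin of dividing cells, is not listed in either table, and the strand setting of the counting is not known here.

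The other 4 listed ring subunits differed among themselves. Exosc5 (NM_138586, chr7:26444172-26453050, plus strand) had 45.1 and 21.7 CPM in the deletion, against 16.5 and 11.7 CPM in its controls. Exosc8 (NM_001163570, chr3:54532601-54539286, minus strand) had 13.9 and 23.2 CPM in the deletion, against 12.3 and 11.2 CPM in its controls. Both were thus higher in each deletion library than in each control library, by a log2 fold change of 1.28 (SE 0.83) for Exosc5 and 0.67 (SE 1.16) for Exosc8. Exosc7 (NM_001081188, chr9:123022349-123045247, plus strand) had 17.2 and 13.9 CPM in the deletion, against 30.5 and 23.2 CPM in its controls. It was the one other subunit with both deletion libraries below both controls, with a log2 fold change of -0.76 (SE 0.85). Exosc4 (NM_175399, chr15:76157827-76161100, plus strand) had 54.4 and 27.2 CPM in the deletion, against 41.6 and 37.1 CPM in its controls, so that the 2 deletion libraries lay on either side of the controls. Its log2 fold change of 0.09 (SE 0.60) lay between -0.54 and 0.54 with each library left out. Of the exon bases of Exosc4, 19.8% overlap those of Oplah on the other strand. Oplah had 43 and 186 reads in the deletion and 97 and 156 reads in its controls.

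The cap subunits overlapped between the groups in the deletion table. Exosc1 (NM_025644, chr19:41997470-42007804, minus strand) had 33.7 and 14.7 CPM in the deletion, against 25.2 and 27.96 CPM in its controls. Exosc2 (NM_144886, chr2:31526257-31536827, plus strand) had 8.93 and 19.9 CPM in the deletion, against 21.7 and 16.6 CPM in its controls. Exosc3 (NM_025513, chr4:45329502-45333475, minus strand) had 35.8 and 14.8 CPM in the deletion, against 11.3 and 15.9 CPM in its controls. In each of the 3 the deletion libraries differed more from each other than the controls did. Their log2 fold changes were -0.10 (SE 0.79) for Exosc1, -0.40 (SE 1.09) for Exosc2 and 0.94 (SE 0.99) for Exosc3. With each library left out in turn they lay between -0.86 and 0.41 for Exosc1, -1.03 and 0.04 for Exosc2 and 0.11 and 1.46 for Exosc3, the ends of each range coming from leaving out a deletion library. Exon overlaps with genes of the other strand were smaller here, at 53 of the 1324 exon bases of Exosc3 (Dcaf10) and 2.64% of those of Exosc2 (Gm13427), as for Exosc8 in the ring (2.14%, Fam48a). Dcaf10 had 749 and 443 reads in the deletion and 257 and 249 reads in its controls. Exosc10 (NM_016699, chr4:147932536-147956507, plus strand), the nuclear exonuclease, had 14.03 and 59.0 CPM in the deletion, against 31.8 and 41.3 CPM in its controls. Deletion library 1 was the lowest of the 4 libraries and deletion library 2 the highest, and the log2 fold change of -0.001 (SE 0.79) averages these opposite values. Without deletion library 2 it was -1.31, and without deletion library 1 it was 0.68.

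In total 2 of 9 subunits were higher in both deletion libraries than in both controls, against 14.3% of all genes in the table, and 2 of 9 were lower, against 17.9% of all genes. Since the choice of the family used this contrast, nothing is read from these shares. The median log2 fold change of the 9 was -0.001, beside -0.03 over all 10487 genes tested. Of the 9, 4 were above 0, as were 47.9% of all genes tested. Across all genes edgeR's quasi-likelihood test called 0 of 10487 at an adjusted p of 0.05 (0%), with 88 at an unadjusted p under 0.05, 5 called by DESeq2 and 0 by limma-voom.

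**Figure D1:**
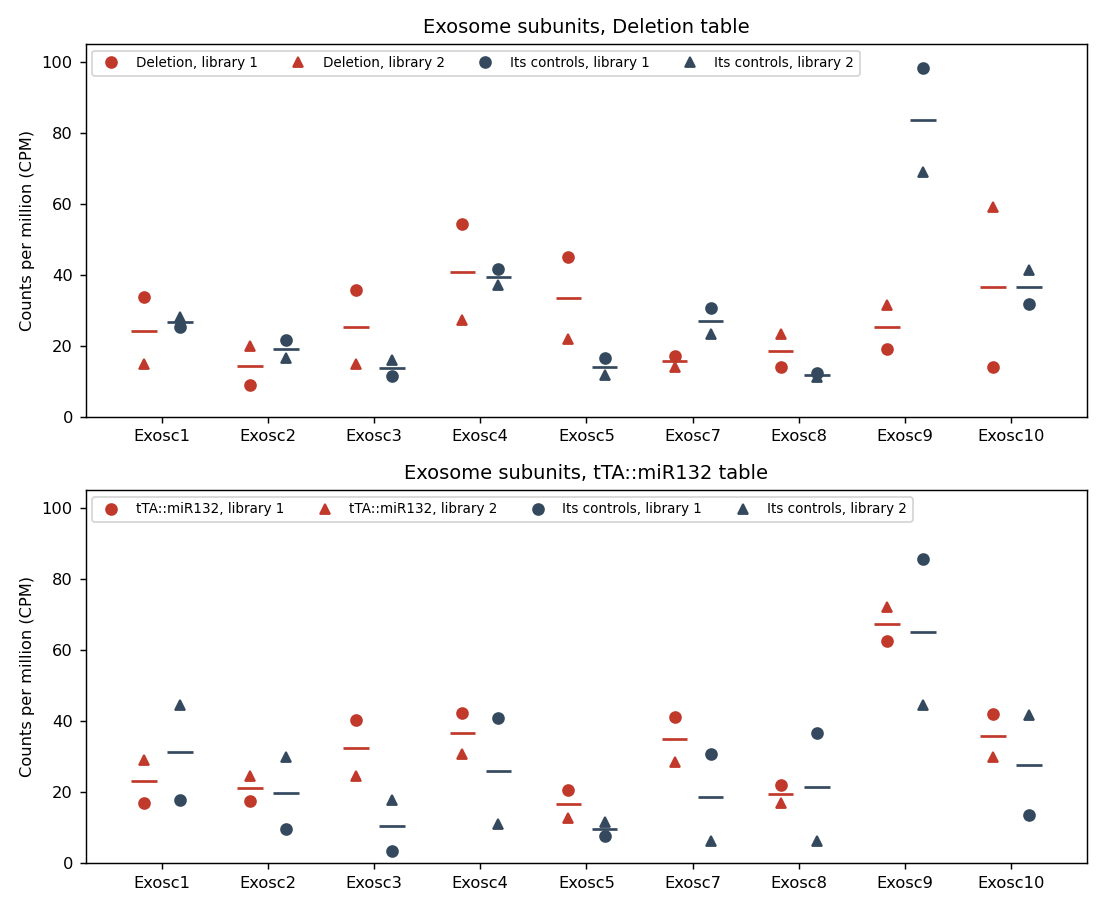
CPM of the 9 listed exosome subunits in each library, with the deletion and its controls above and tTA::miR132 and its controls below. Circles are library 1, triangles library 2 and bars the mean of 2 libraries. Exosc9 is at 19.1 and 31.3 CPM in the deletion and at 98.3 and 69.0 CPM in its controls, while it is at 62.4 and 72.2 CPM under tTA::miR132, between its controls.

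The tTA::miR132 comparison was not used to choose the family and was tested. Of 5 listed oligodendrocyte markers, 4 were higher in both transgenic libraries than in both controls, as were 18.7% of all genes. The fifth, Mog, was lower in both, as were 14.2% of all genes. All 5 summed to 4295 to 4461 CPM under tTA::miR132 and 3549 to 3655 CPM in its controls. The part of these markers in the values below was not tested. Choroid plexus markers summed to 2966 to 4221 CPM under tTA::miR132 and 3939 to 5330 CPM in its controls. Exosc9 had 62.4 and 72.2 CPM under tTA::miR132, against 85.7 and 44.5 CPM in its controls. Both transgenic libraries lay between the 2 controls. The log2 fold change was 0.01 (SE 0.45), with an adjusted p of 0.999 by edgeR's quasi-likelihood test with Benjamini-Hochberg adjustment over all genes. The deletion and tTA::miR132 were measured against separate controls, and the difference between the 2 comparisons was not tested.

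The other ring subunits mostly overlapped their controls as well. Exosc4 had 42.2 and 30.8 CPM under tTA::miR132, against 40.7 and 10.96 CPM in its controls. Exosc7 had 41.1 and 28.5 CPM under tTA::miR132, against 30.6 and 6.26 CPM in its controls. In both of these genes control library 2 was far below the other 3 libraries. Oplah, which overlaps Exosc4, had 539 and 179 reads under tTA::miR132, against 136 and 0 reads in its controls. The part of this overlap in the level of Exosc4 was not tested. Exosc8 had 21.9 and 16.8 CPM under tTA::miR132, against 36.7 and 6.14 CPM in its controls, and its transgenic libraries lay between the controls. Exosc5 had 20.5 and 12.7 CPM under tTA::miR132, against 7.48 and 11.6 CPM in its controls. It was the one ring subunit higher in both transgenic libraries than in both controls, with library 2 above the nearer control by about 1 CPM. The log2 fold changes were 0.47 for Exosc4, 0.76 for Exosc5, 0.89 for Exosc7 and -0.17 for Exosc8, with SEs of 0.72 to 1.12 and adjusted p of 0.997 to 0.999 by edgeR. With each library left out in turn, Exosc7 lay between 0.18 (without control library 2) and 2.41 (without control library 1), and Exosc5 between 0.35 and 1.14.

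Among the cap subunits Exosc3 differed most. Exosc3 had 40.2 and 24.5 CPM under tTA::miR132, against 3.33 and 17.7 CPM in its controls. Both transgenic libraries were above both controls, and control library 1 held 33 reads of it where control library 2 held 147. The log2 fold change of 1.57 (SE 0.94) did not pass the test (adjusted p = 0.997, unadjusted p = 0.122, both from edgeR). It lay between 0.81 without control library 1 and 3.27 without control library 2, so a single control library moved it by more than its SE. Exosc1 had 16.99 and 29.1 CPM under tTA::miR132, against 17.8 and 44.6 CPM in its controls (log2 fold change -0.49, SE 0.74). Exosc2 had 17.3 and 24.6 CPM under tTA::miR132, against 9.60 and 29.9 CPM in its controls (log2 fold change 0.03, SE 0.87). Both overlapped their controls.

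Exosc10 had 41.8 and 29.8 CPM under tTA::miR132, against 13.4 and 41.8 CPM in its controls, with a log2 fold change of 0.32 (SE 0.70). Control library 1 was low and the other 3 libraries overlapped. No subunit passed the test. Over all genes edgeR called 0 of 10734 (0%), with 303 at an unadjusted p under 0.05, 39 called by DESeq2 and 2 by limma-voom. Without overlap, 2 of 9 subunits were higher in tTA::miR132, against 18.7% of all genes, and 0 of 9 were lower, against 14.2% of all genes. The median log2 fold change of the 9 was 0.32, beside -0.002 over all 10734 genes. Of the 9, 7 were above 0, Exosc2 and Exosc9 by very little, as were 49.9% of all genes. Only 3 of the 9 kept their sign with each library left out in turn. Of the 9 subunits, 4 had a q-value under 0.05 in the authors' deposited table, against 53.1% of all genes there. They were Exosc8 (1.1e-10), Exosc9 (0.000542), Exosc3 (0.000907) and Exosc2 (0.0127), in the authors' deposited table. Among these 4, Exosc2, Exosc8 and Exosc9 had both transgenic libraries between the control libraries.

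**Figure D2:**
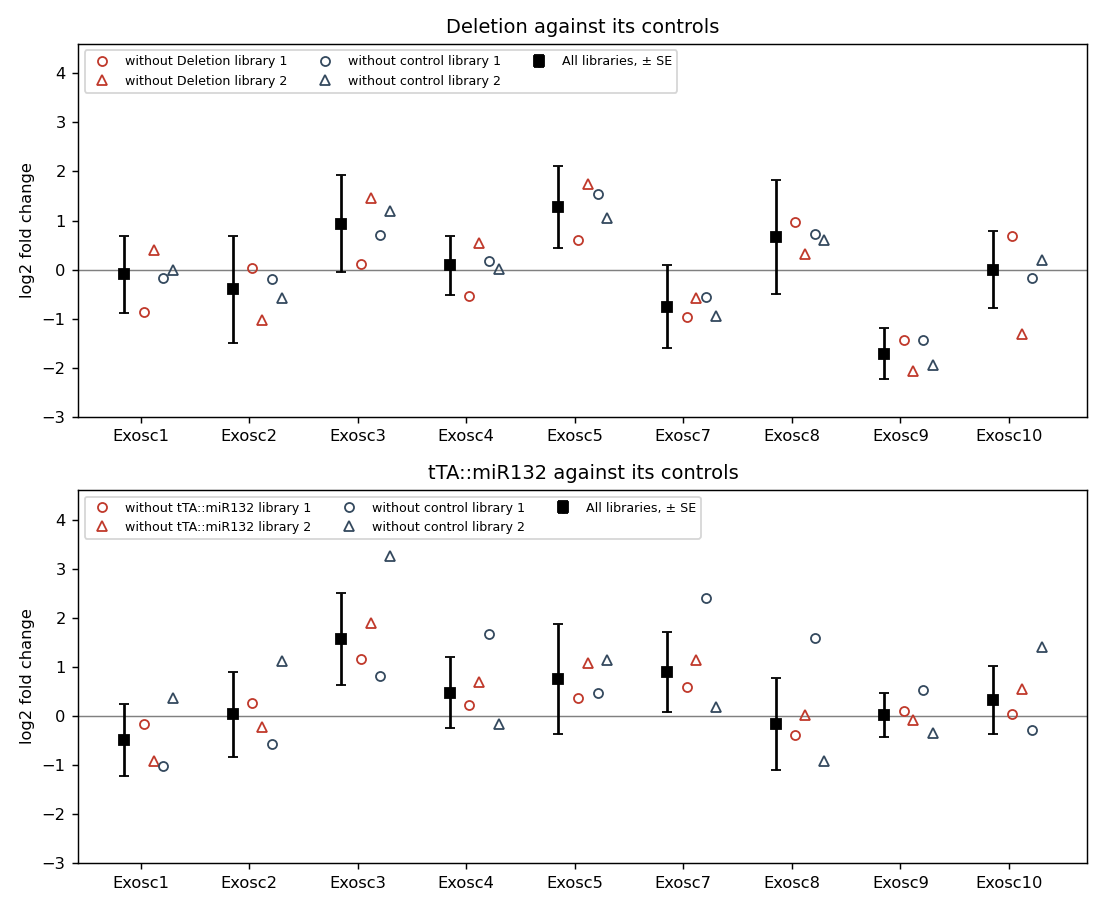
The log2 fold change of each subunit in the deletion (above) and in tTA::miR132 (below) with its SE, beside the values with 1 library left out. In tTA::miR132 the values of Exosc3 range between 0.81 and 3.27 and those of Exosc7 between 0.18 and 2.41, at the ends with 1 control library left out.

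Set side by side, Exosc5 was the single subunit higher in every library than in every control in both comparisons, at 45.1 and 21.7 CPM in the deletion and 20.5 and 12.7 CPM under tTA::miR132. Of the 9991 genes that both tables list, 2.76% were, and since the deletion was used to choose the family, nothing is read from this.

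Levels of different subunits were compared per kilobase of the longest coding transcript. In the controls of the deletion Exosc9 was the most abundant subunit, at 51.7 ± 12.8 CPM per kilobase (SD, n = 2), above 83.2% of all genes with a length. The next was Exosc7 at 25.5 ± 4.93, and both controls put Exosc9 above it. Exosc4 followed at 21.9 ± 1.75, then Exosc1 at 16.4 ± 1.19, Exosc5 at 13.7 ± 3.31, Exosc10 at 13.1 ± 2.40, Exosc3 at 12.6 ± 2.97, Exosc2 at 11.4 ± 2.15 and Exosc8 at 9.05 ± 0.580 CPM per kilobase (SD, n = 2 each). Besides Exosc9 over Exosc7, the neighbours Exosc4 over Exosc1 and Exosc2 over Exosc8 had controls that did not overlap, and the other neighbours did. The median gene was at 15.1 CPM per kilobase. In the controls of tTA::miR132 Exosc9 also led, at 40.2 ± 18.0 CPM per kilobase (SD, n = 2), but no neighbours in that order were separate from each other.

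In the deletion, the share of Exosc9 in the family's RNA restates the level by which the family was chosen, so nothing is read from it. Exosc9 gave 6.67% and 13.6% of the summed CPM per kilobase in deletion libraries 1 and 2, against 32.2% and 26.3% in its controls. Under tTA::miR132 it gave 18.3% and 24.8%, against 32.1% and 20.8% in its controls. The summed level itself was 177.3 and 142.5 CPM per kilobase in the deletion, against 188.7 and 161.9 in its controls, and the groups overlapped. Under tTA::miR132 the sum was 210.9 and 179.9 CPM per kilobase, against 164.7 and 132.1 in its controls. Both transgenic libraries were above both controls, as were 18.7% of all single genes, and the difference was not tested. Neither part was so separate. The ring summed to 137.8 and 113.9 under tTA::miR132, against 140.1 and 55.5 in its controls. The cap summed to 58.1 and 55.3, against 19.7 and 61.6. Exosc5 was the most abundant subunit of deletion library 1 at 43.8 CPM per kilobase, and Exosc10 that of deletion library 2 at 21.1.

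**Figure D3:**
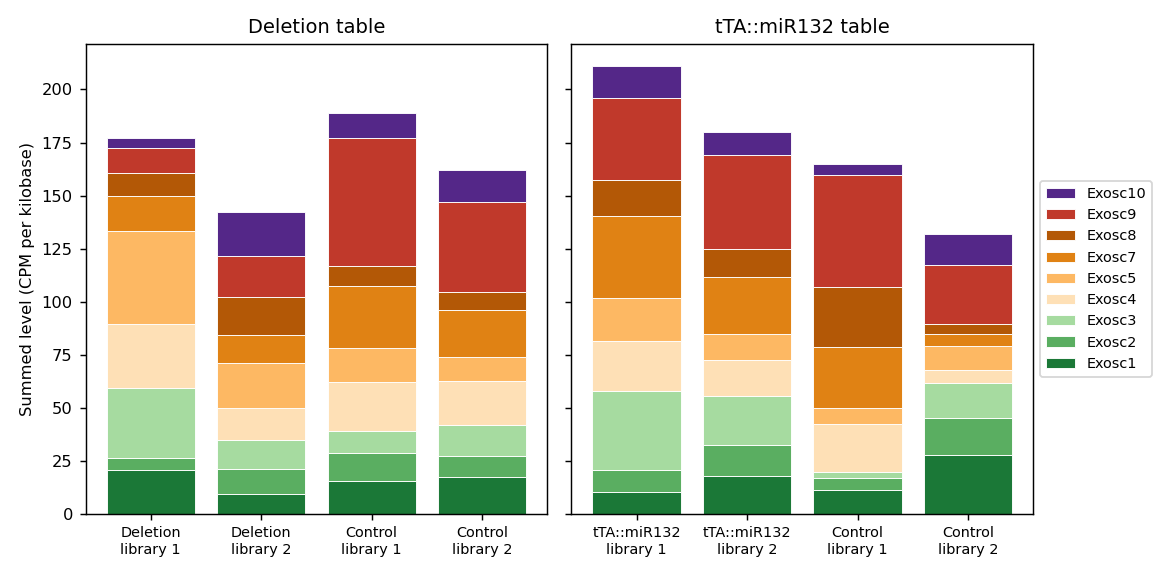
Summed level of the 9 subunits in each library in CPM per kilobase, split by subunit, with the cap at the bottom, the ring above it and Exosc10 on top. Exosc9 (red) takes 6.67% and 13.6% of the sum in the deletion libraries and 32.2% and 26.3% in their controls. The family was chosen by the low level of Exosc9 in the deletion, so nothing is read from these shares.

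The 2 controls of tTA::miR132 were further apart in these genes than other libraries of a group. The median ratio between them (the higher over the lower CPM) was 3.11 over the 9 subunits, with a range of 1.55 to 5.97, beside 1.74 over 4780 genes in the same range of counts. In the 2 tTA::miR132 libraries it was 1.42 for the subunits and 1.41 for genes in their range. In the deletion it was 2.07, beside 2.14 for genes in their range, and in the deletion's controls it was 1.31, beside 1.33. The cap and most of the ring differed in opposite directions between the controls of tTA::miR132. All 3 cap subunits were higher in control library 2, with sums of 19.7 and 61.6 CPM per kilobase in control libraries 1 and 2. Of the 5 ring subunits, 4 (Exosc4, Exosc7, Exosc8 and Exosc9) were higher in control library 1, with ring sums of 140.1 and 55.5 CPM per kilobase in control libraries 1 and 2. Exosc5 and Exosc10 were higher in control library 2. The library numbers have no order, and of all genes 5801 were higher in control library 1 and 4958 in control library 2. Every tTA::miR132 fold change above is taken against these 2 controls. Control library 2 also had the largest share of genes without a count in the tTA::miR132 table. It was 4.49%, against 0.85% to 2.43% in the other libraries, and its part in these gaps was not tested.

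**Figure D4:**
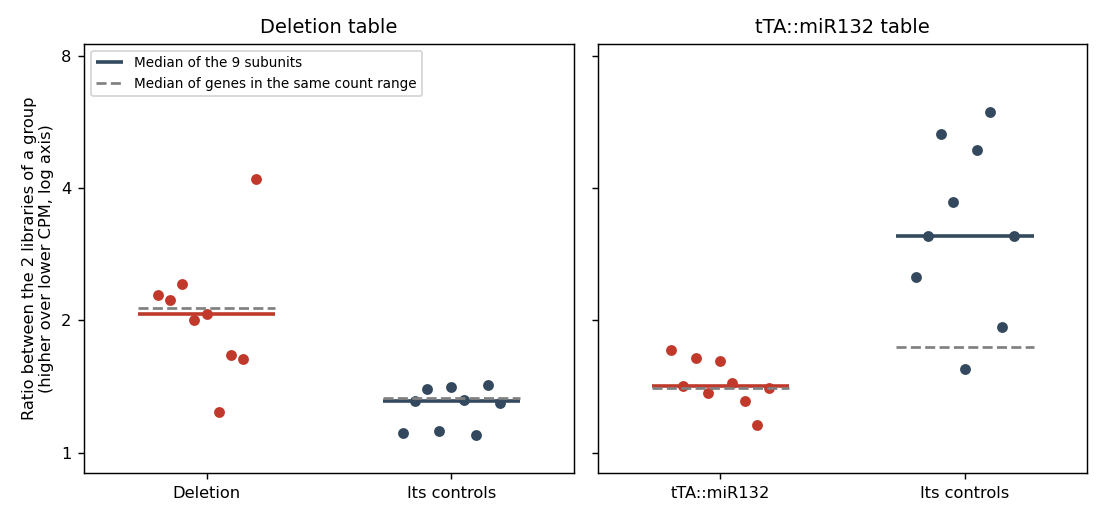
Ratio of the higher to the lower CPM between the 2 libraries of a group, 1 point a subunit, on a log axis. The solid bar is the median of the 9 subunits and the dashed bar that of genes in the same range of counts. The bars are at 3.11 and 1.74 in the controls of tTA::miR132 and lie close together in the other 3 groups.

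The 3 genes below had the pattern most like that of Exosc9 over the 8 libraries. Pearson's r of log2(CPM + 1), centred within each table, was 0.986 for Shd, which encodes an adaptor protein with an SH2 domain, 0.969 for Rnf44, which encodes a RING finger protein, and 0.96 for Rpl18, a protein of the large ribosomal subunit, among 9991 genes. Shd had 8.3 and 18.9 CPM in the deletion, against 56.4 and 46.4 CPM in its controls. Its levels were 28.4 and 27.5 CPM under tTA::miR132, against 35.1 and 17.6 CPM in its controls. Libraries of a group share their animals' genotype, and those of a table their processing, so r describes the likeness only. Within the family the most alike was Exosc7 (r = 0.57) and the least Exosc5 (r = -0.738). The difference of Exosc9 between the deletion and its controls, by which the family was chosen, enters every r. Nothing is therefore read from this order.

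The catalytic partners of the barrel are the DIS3 family. Dis3, the nuclear exonuclease and endonuclease, had 15.9 and 15.4 CPM in the deletion, against 24.4 and 22.6 CPM in its controls. Dis3l, the cytoplasmic one, had 12.4 and 24.1 CPM in the deletion, against 38.3 and 28.9 CPM in its controls. Both genes were lower in each deletion library than in each control, as were 17.9% of all genes. The log2 fold changes were -0.56 (SE 0.90) for Dis3 and -0.87 (SE 0.75) for Dis3l. Dis3l2, which works without the barrel on uridylated RNA, had 0 and 32.9 CPM in the deletion, against 25.3 and 32.7 CPM in its controls. Its log2 fold change of -0.83 (SE 2.06) came from the 0 in deletion library 1 and was 0.17 without it. Under tTA::miR132 Dis3l had 45.2 and 30.9 CPM, against 14.2 and 54.9 CPM in its controls, and Dis3l2 had 8.94 and 23.4 CPM, against 26.5 and 4.58 CPM in its controls. Neither passed the test, with log2 fold changes of 0.08 and 0.03 and an adjusted p of 0.999 by edgeR. Dis3 was not listed there, and none of the 3 was listed in the tTA::miR212 table.

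The cofactors that feed RNA to the exosome were counted from lists of RNA decay genes. In the nucleus these are the helicase, polymerase and adaptor proteins of the TRAMP, NEXT and related complexes and the cap-binding proteins. Of 14 listed nuclear cofactors, 6 were above 0 and 8 below 0 in the deletion (median log2 fold change -0.07), and 10 were above and 4 below in tTA::miR132 (median 0.16). The largest in the deletion was Srrt, which joins the cap-binding complex to RNA decay, at 135.4 to 191.2 CPM in the deletion and 77.1 to 109.6 CPM in its controls (log2 fold change 0.84, SE 0.36). Under tTA::miR132 the largest was Rbm7, the RNA-binding part of NEXT, at 74.9 to 85.3 CPM in transgenic libraries and 27.0 to 50.1 CPM in controls (log2 fold change 1.02, SE 0.47, adjusted p = 0.997 by edgeR). Both genes had groups that did not overlap, which 14.3% of all genes had as higher in the deletion and 18.7% in tTA::miR132. For tTA::miR212, 5 nuclear cofactors were listed, 2 above and 3 below 0, with log2 fold changes of -0.27 (Pabpn1, a nuclear poly(A)-binding protein) to 0.21 (Ncbp1, a cap-binding protein). In that table edgeR called 0 of 4618 genes (0%), with 260 at an unadjusted p under 0.05, and DESeq2 and limma-voom called 0.

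The SKI complex unwinds RNA for the cytoplasmic exosome. In the deletion 2 of 3 listed members were above 0, with log2 fold changes of -0.26 for Wdr61 to 0.13 for the helicase gene Skiv2l. In tTA::miR132 3 of 4 were above 0. The scaffold gene Ttc37 had 6.73 to 14.9 CPM in the transgenic libraries, against 0 to 1.21 CPM in controls. Both transgenic libraries were above both controls, as were 18.7% of all genes, but the controls held only 12 and 0 reads. The log2 fold change was 4.10 (SE 2.74), with an adjusted p of 0.997 by edgeR. Ttc37 had a low mean, 72.8 reads a library. In tTA::miR212 Skiv2l was the single listed member, at 115.1 to 142.6 CPM in transgenic libraries and 122.8 to 150.1 CPM in controls. CPM there were scaled to the total over the transcript kept for each symbol, so they cannot be set beside those of the other comparisons.

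Lists of other decay routes had medians on both sides of 0, and none of their genes passed the test in tTA::miR132. For decapping and decay from the 5' end, 7 of 14 genes were above 0 in the deletion and 8 of 15 in tTA::miR132, with medians of 0.05 and 0.00 (log2). Patl1, a decapping activator, had 2.87 to 12.8 CPM in the deletion, against 31.9 to 35.8 CPM in its controls (log2 fold change -2.11, SE 1.07). For deadenylation, which shortens the poly(A) tail first, 10 of 16 were above 0 in the deletion and 9 of 15 in tTA::miR132, with medians of 0.15 and 0.10. Tob2, which recruits a deadenylase, had 83.4 to 84.5 CPM in the deletion, against 31.8 to 43.6 CPM in its controls. Parn, a poly(A)-specific ribonuclease, had 34.99 to 46.2 CPM under tTA::miR132, against 6.47 to 13.4 CPM in its controls (log2 fold change 1.98, SE 0.76, adjusted p = 0.997 by edgeR). These 3 genes had groups without overlap, which 14.3% of all genes had as higher and 17.9% as lower in the deletion, and 18.7% as higher in tTA::miR132. Others of these lists overlapped under tTA::miR132: Xrn1, the main 5' exonuclease, had 10.5 to 19.97 CPM, against 19.5 to 36.6 CPM in its controls, and Dcps, a scavenger decapping enzyme, had 20.9 to 30.3 CPM, against 3.13 to 24.0 CPM in its controls. For nonsense-mediated decay, which removes messages with early stop codons, 1 of 6 was above 0 in the deletion and 2 of 6 in tTA::miR132, with medians of -0.50 and -0.11. Of all genes tested, 47.9% were above 0 in the deletion and 49.9% in tTA::miR132. The largest fold changes of this list in the deletion leaned on deletion library 1, the one with many genes at 0. Upf3a (log2 fold change -1.18) had 17 and 396 reads in deletion libraries 1 and 2, and Smg6 (-0.84) had 50 and 397. In tTA::miR212 3 decapping, 7 deadenylation and 6 nonsense-mediated decay genes were listed, with medians of 0.01, 0.11 and -0.04.

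**Figure D5:**
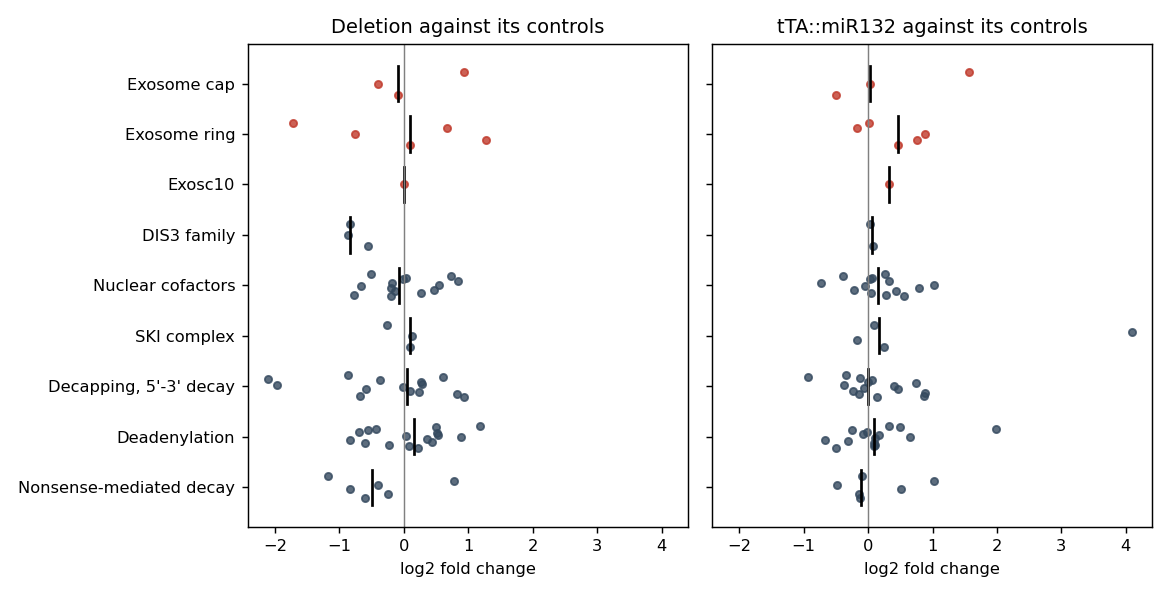
The log2 fold change of each listed gene of the exosome (red) and of other RNA decay lists (dark) in the deletion and in tTA::miR132, with a bar at each list's median. The 3 DIS3 family genes lie between -0.87 and -0.56 in the deletion, and the ring spans -1.71 to 1.28 there. The value of Dis3l2 came from a count of 0 in deletion library 1 and was 0.17 without that library.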

How the data were processed

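Hippocampal polyadenylated RNA was sequenced on an Illumina Genome Analyzer II and reads were aligned to mm9 with Bowtie 0.12.7, per the series design text. The deposited values used here are raw counts per gene or transcript, per the file headers. The design text also names Cufflinks 1.2, for abundances in FPKM that are not used here. No source used here gives the counting tool, its strand setting or the filter on low genes. The authors' q-values for tTA::miR132 were copied from their deposited table, and 14 columns of normalized library values were left aside. Columns carry a group name with a number, so libraries are numbered within a group and tied to no single sample. For tTA::miR212, each symbol was represented by its transcript of highest mean count.

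CPM was each count scaled to the total of its library. For tTA::miR212 that total was taken over the transcripts kept for the symbols only. It was 1304567 in transgenic library 1, where all transcripts summed to 3146667. CPM of tTA::miR212 are therefore not on the scale of the other 2 tables. Each table was fitted on its own, over all its genes, in R 4.3.3 with the quasi-likelihood test of edgeR 4.0.16 (TMM, filterByExpr, robust, Benjamini-Hochberg, threshold 0.05). The code was run on simulated data whose spread between libraries was far below that of the deletion and tTA::miR132 libraries. That run therefore cannot show what the test finds or misses in those libraries. Alternatives were DESeq2 1.42.0, limma-voom (limma 3.58.1), other scaling factors, no filter, a replicate block and leaving out each library. Named genes were all listed subunits and DIS3 family members, and from each other list the 2 with the largest absolute log2 fold change at a mean count of at least 20. Of those from the other lists, the text gives a part that was chosen by hand. The genes most like Exosc9 were to be taken over 14 libraries, but 8 were used because the tTA::miR212 table does not list Exosc9. Reads were amplified and carry no molecular identifiers, so counting error alone is too small an error. The members and lists were chosen with earlier results of these data known.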

Additional observations from a re-analysis of the deposited data

How the results depend on the processing

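Shared replicate numbers did not pair the libraries (correlations of deviations 0.015 in the deletion, 0.013 in tTA::miR132 and -0.079 to 0.021 in tTA::miR212). The count of all genes called in the deletion, 0 in edgeR, was 5 with DESeq2 and 1 to 4527 with a library left out. In tTA::miR132 it was 39 with DESeq2, 2 with limma-voom, 1 with the replicate block and 0 to 111 with a library left out. In tTA::miR212 it was 1 with the replicate block and 0 to 18 with a library left out. In tTA::miR132 the log2 fold change of Exosc8 reversed to 0.20 with limma-voom and to 0.30 with the replicate block. With a library left out, values in tTA::miR132 ranged from -1.03 to 0.36 for Exosc1, -0.58 to 1.11 for Exosc2, -0.17 to 1.67 for Exosc4, -0.93 to 1.59 for Exosc8, -0.36 to 0.53 for Exosc9 and -0.29 to 1.41 for Exosc10. In the deletion and tTA::miR132, leaving out a library leaves its group with 1, which is assumed to vary like the other group. In tTA::miR212 it leaves 2. The cause of these changes was not tested. The median over the subunits lay between -0.24 and 0.31 in the deletion and 0.21 and 0.67 in tTA::miR132 over all alternatives. With 2 libraries a group, edgeR's common coefficient of variation between libraries came to 74.2% (deletion) and 60.7% (tTA::miR132). For tTA::miR212 no median over the subunits could be had, since none is listed.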
